A study of Mus musculus with 8 samples.

Results

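CTCF and the cohesin complex are described here at the RNA level in natural killer (NK) cells, through 10 genes chosen by symbol: the ring subunits *Smc1a*, *Smc3*, *Rad21*, *Stag1* and *Stag2*, the loader *Nipbl*, the release factor *Wapl*, the regulators *Pds5a* and *Pds5b*, and *Ctcf*. All 10 were among the 48321 gene symbols of the count files, and all 10 were among the 12595 genes that passed a filter on low counts and were tested. RNA was sequenced from NK cells, sorted as CD45+ TCRb- NK1.1+ cells, of lung and of spleen. The mice, labelled C57/Bl6, were *Wt* or carried on both alleles a germline deletion of the proximal enhancer of *Ccl5* (*Ccl5* ΔPE/ΔPE, here KO). Each of the 4 groups (Lung *Wt*, Lung KO, Spleen *Wt*, Spleen KO) had 2 libraries, and no group carried another allele or treatment. The labels give no age, and the study's methods give only an age range, from weeks to months, and mixed sexes for its mice in general. Nor is it stated that both libraries of 1 group are from different animals, so p-values measure only the spread between these libraries, which may be technical.

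Cohesin is a ring that holds DNA and can extrude it into loops. NIPBL loads the ring and drives extrusion, WAPL with the PDS5 proteins releases it, and CTCF, a zinc finger protein bound to its DNA motif, stops it and so sets the ends of many loops and domain borders. The same ring holds sister chromatids together after DNA replication, so its genes are used both by resting and by dividing cells. Enhancers such as that of *Ccl5* act on promoters at a distance, and looping proteins are one of the ways in which such contacts form.

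Between 3132963 and 26482366 reads were counted per library, so that 3 reads, taken as the floor, corresponded to between 0.115 and 0.979 CPM (reads relative to library totals scaled by edgeR's TMM factors). *Ccl5*, the gene next to the deleted enhancer, was at 19518 and 18350 CPM (*Wt*) and 2992 and 3195 (KO) in lung, and 16679 and 15664 (*Wt*) and 2676 and 2432 (KO) in spleen, so the KO libraries were lower in both organs, as labelled. All 11 NK cell markers were present in every group. *Pds5b*, the member with the fewest reads, had 137 to 1226 reads per library, and *Nipbl*, the one with the most, had 1373 to 12395, so every member was far above the floor. In a bulk sample, fewer cells of a type and less RNA per cell cannot be told apart.

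The members lie on 7 chromosomes of GRCm38, with *Rad21* and *Nipbl* on chromosome 15, *Pds5a* and *Pds5b* on chromosome 5, and *Smc1a* and *Stag2* on the X chromosome. Promoter windows from RefSeq (GRCm38.p6), which span 250 bases before to 50 after the start of a gene, were matched for 7 of the 10 members (*Ctcf*, *Smc1a*, *Smc3*, *Stag1*, *Wapl*, *Pds5a* and *Pds5b*). The letters GCCATNTT of the motif of YY1, itself a looping protein, were found on either strand in 4 of these 7 and in 6.05% of all 32851 windows. They stood right at the start of *Smc3* (bases 1 to 8 after it), just inside *Ctcf* (bases 11 to 18), 37 to 30 bases before the start of *Pds5b*, and 202 to 195 bases before that of *Stag1*. A match of letters is a description and not a binding site. RNA of *Smc3* differed between the genotypes, as did that of *Ctcf* in lung, and that of *Stag1* was level over the groups. *Wapl* was the member whose KO effect differed most between the organs. The windows of *Ctcf*, *Smc3*, *Stag1* and *Wapl* are shown in lower case with the YY1 letters in capitals. They lie on the plus strand at chr8:105636288-105636587, chr19:53600146-53600445, chr9:100643198-100643497 and chr14:34673678-34673977.
*Ctcf*: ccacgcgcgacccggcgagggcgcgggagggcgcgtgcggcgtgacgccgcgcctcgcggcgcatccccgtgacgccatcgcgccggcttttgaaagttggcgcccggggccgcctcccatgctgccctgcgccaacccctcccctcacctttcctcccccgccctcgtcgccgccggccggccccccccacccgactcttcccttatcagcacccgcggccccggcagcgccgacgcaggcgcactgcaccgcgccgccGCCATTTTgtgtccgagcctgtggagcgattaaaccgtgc
*Smc3*: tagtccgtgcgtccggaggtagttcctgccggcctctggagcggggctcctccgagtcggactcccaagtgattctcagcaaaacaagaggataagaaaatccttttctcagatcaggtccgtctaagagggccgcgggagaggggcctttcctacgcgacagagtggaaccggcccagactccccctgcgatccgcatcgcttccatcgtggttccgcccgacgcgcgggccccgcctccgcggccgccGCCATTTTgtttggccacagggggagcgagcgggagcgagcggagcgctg
*Stag1*: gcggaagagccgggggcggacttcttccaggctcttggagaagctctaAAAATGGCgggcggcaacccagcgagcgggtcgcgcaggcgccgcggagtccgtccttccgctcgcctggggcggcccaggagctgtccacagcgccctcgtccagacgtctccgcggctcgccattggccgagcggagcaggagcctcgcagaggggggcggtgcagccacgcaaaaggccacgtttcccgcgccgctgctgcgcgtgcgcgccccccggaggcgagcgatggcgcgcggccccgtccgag
*Wapl*: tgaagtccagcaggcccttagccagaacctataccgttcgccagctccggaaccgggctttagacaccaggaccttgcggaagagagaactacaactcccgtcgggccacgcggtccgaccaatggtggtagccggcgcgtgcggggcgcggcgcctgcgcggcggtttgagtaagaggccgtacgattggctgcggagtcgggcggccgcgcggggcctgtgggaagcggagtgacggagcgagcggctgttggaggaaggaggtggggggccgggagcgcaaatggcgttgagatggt

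*Wapl* had none of the YY1 letters in this window, and *Rad21*, *Stag2* and *Nipbl* had no window to search. A link between these letters and the KO effects was not tested. The GC box GGGCGG was found in all 7 windows (35.7% of all windows), CCAAT in 4 (*Smc1a*, *Stag1*, *Wapl* and *Pds5b*; 37.4%), the E2F letters TTTCCCGC in 2 (*Smc1a* and *Stag1*; 1.07%), the CTCF core AGGGGGCGC in 1 (*Pds5b*; 1.25%) and the RUNX letters TGTGGT in 0 (16.8%), each searched on both strands. None of the matches in these 7 windows overlapped another.

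Set against exon length, the subunits were not at equal RNA levels. *Rad21* had the highest median level over the 8 libraries, 61.2 CPM per kb of exon (56.8 to 72), followed by *Smc3* at 55.1 (46.6 to 66.1), *Nipbl* at 44.1 (36.1 to 50.8), *Wapl* at 35.8 (29.4 to 47.9), *Smc1a* at 33.8 (31.1 to 37), *Ctcf* at 24.4 (19.6 to 34.7) and *Stag2* at 20.9 (18.8 to 24.4). The ranges of these 7 genes overlapped from each one to the next. *Stag1* came next at 10.3 CPM per kb (9.72 to 10.7) and overlapped with neither neighbour, whereas *Pds5b* at 4.78 (3.61 to 5.58) and *Pds5a* at 4.22 (2.98 to 4.85) overlapped at the lower end. STAG1 and STAG2 are alternative subunits of the ring, and *Stag2* stood above *Stag1* in all 8 libraries, by a ratio per kb of between 1.77 and 2.32. These levels divide by all annotated exons, of which a cell may use only a part.

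**Figure D1:**
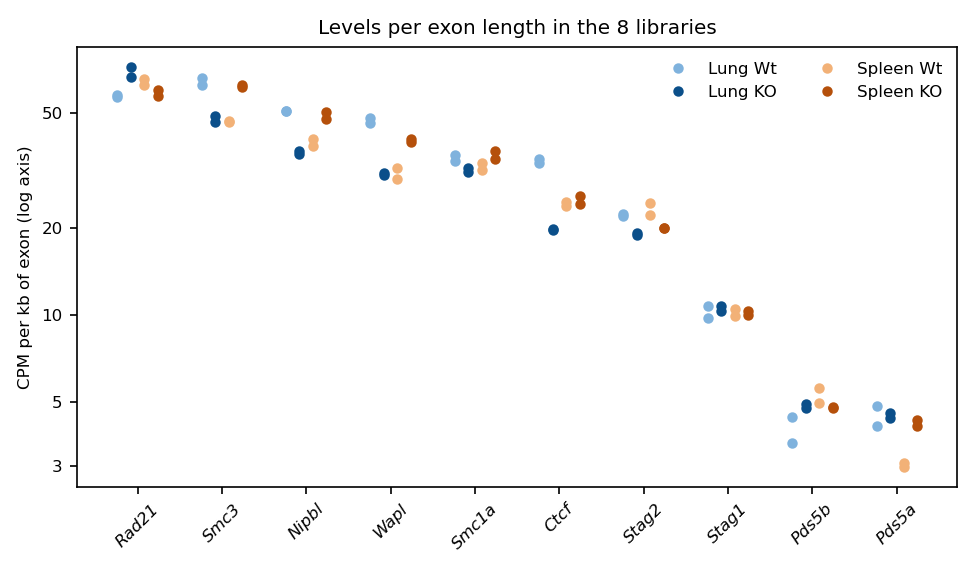
CPM per kb of exon (log axis) of the 10 genes in order of their median, with 1 point for each of the 8 libraries, coloured by group. *Stag1* (9.72 to 10.7) is the only gene that overlaps with neither neighbour, and its 8 points lie closest together.

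The first question was whether deletion of the *Ccl5* enhancer went along with other levels of the looping genes in lung NK cells. In Lung KO, *Ctcf* fell to 57.7% of *Wt*, *Wapl* to 65.3%, *Nipbl* to 72.1% and *Smc3* to 74.4%, while *Rad21* rose to 121%. At an FDR of 0.05 in edgeR's quasi-likelihood test, adjusted by Benjamini-Hochberg across the whole table, 7 of the 10 members changed, 1 higher and 6 lower. Of all 12595 genes tested, 55.6% passed the same test, so being called does not by itself set the members apart. Scaling by library totals, which shifts the median of all genes to 0.11, called 6 members (2 higher, 4 lower) and 55.4% of all genes. The members' median log2 fold change was -0.17, against 0.02 over all genes tested.

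In spleen, *Pds5a* rose to 139% of *Wt*, *Smc3* to 132%, *Wapl* to 131% and *Nipbl* to 124%, and *Stag2* fell to 85.8%. Again 7 of the 10 members passed the test, 5 higher and 2 lower, beside 57.1% of all genes tested. With library totals the test called 7, 4 higher and 3 lower, beside 57.2% of all genes. The median log2 fold change of the members was 0.11 and that of all genes tested 0.00. *Ctcf* was not called in spleen.

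The KO effect itself was then compared between the organs, as a difference of log2 fold changes (lung minus spleen). It passed the test in 8 of the 10 members, 2 higher and 6 lower in lung, beside 61.6% of all genes tested. With library totals the test called 9, 4 higher and 5 lower, beside 61.3% of all genes. Of the 6 members called in both organs, 5 (*Rad21*, *Smc1a*, *Smc3*, *Nipbl* and *Wapl*) had opposite signs, and 1 (*Stag2*) had the same sign. Over all genes tested, 4367 were called in both organs, 3402 with opposite signs and 965 with the same sign, so opposite signs were the more frequent outcome in the table as a whole too.

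**Figure D2:**
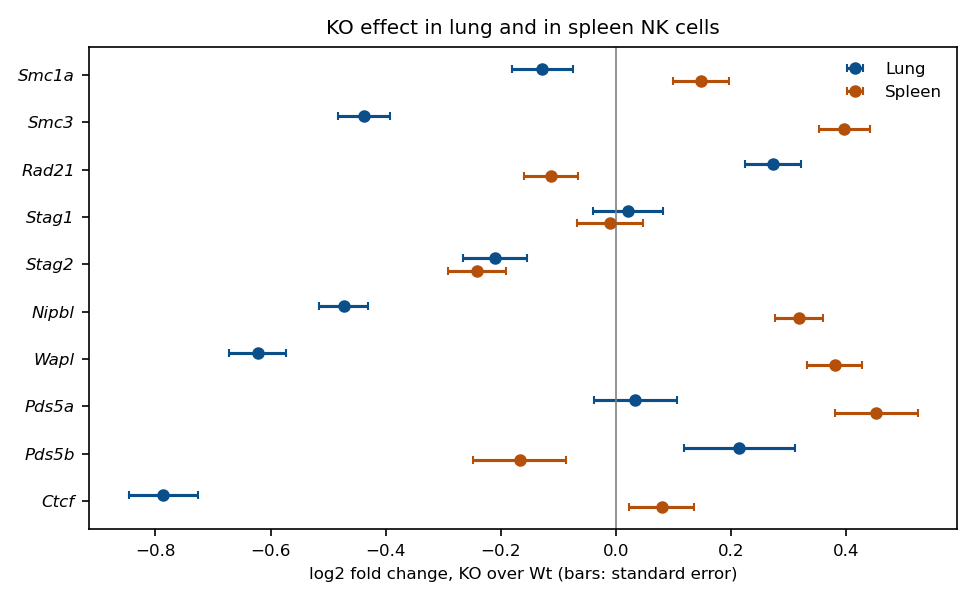
Log2 fold change of KO over *Wt* with its standard error for each member in lung (blue) and spleen (orange), 2 libraries per group. *Smc3*, *Nipbl* and *Wapl* lie left of 0 in lung and right of it in spleen, *Rad21* lies the other way, *Stag2* lies left in both, and *Stag1* lies at 0 in both.

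Among the ring subunits, *Smc3* codes for one of the long coiled-coil arms. It was at 366.4 and 345.1 CPM (*Wt*) and 271.2 and 258.2 (KO) in lung, and 258 and 260.3 (*Wt*) and 345.7 and 339.7 (KO) in spleen. Lung *Wt* and Spleen KO thus formed the high level and Lung KO and Spleen *Wt* the low one, with no overlap of the genotypes in either organ. As a log2 fold change of KO over *Wt*, this was -0.44 ± 0.05 (SE; edgeR adjusted p = 3e-10) in lung and 0.40 ± 0.04 (edgeR adjusted p = 1.5e-09) in spleen, and the difference between them was -0.83 ± 0.06 (edgeR adjusted p = 4.9e-14).

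*Smc1a*, which codes for the partner arm, moved in the same directions by less. Its levels were 196.4 and 205.2 CPM (*Wt*) and 179.3 and 185.6 (KO) in lung, and 183.3 and 193.4 (*Wt*) and 200.1 and 213.4 (KO) in spleen. The values of the test were -0.13 ± 0.05 in lung (edgeR adjusted p = 0.038) and 0.15 ± 0.05 in spleen (edgeR adjusted p = 0.01), on the log2 scale. The lung call was lost without Lung *Wt* 2 (-0.11), Lung KO 1 (-0.10) or Lung KO 2 (-0.16), and the spleen call without Spleen *Wt* 1 (0.12) or Spleen KO 2 (0.08). The arms are partners in the ring, yet *Smc3* over *Smc1a* per kb was 1.94 and 1.75 (*Wt*) and 1.57 and 1.45 (KO) in lung, and 1.47 and 1.4 (*Wt*) and 1.8 and 1.66 (KO) in spleen.

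*Rad21* codes for the kleisin that closes the ring, and it went against both arm genes in each organ. It was at 240.4 and 244.3 CPM (*Wt*) and 304.8 and 282 (KO) in lung, and 264 and 276.1 (*Wt*) and 242.2 and 254.2 (KO) in spleen. Both Lung KO libraries lay above all 6 others. Its log2 fold change was 0.27 ± 0.05 in lung (edgeR adjusted p = 1.1e-05) and -0.11 ± 0.05 in spleen (edgeR adjusted p = 0.038), with a difference of 0.38 ± 0.07 (edgeR adjusted p = 6e-06). The spleen call was lost without Spleen *Wt* 2 (-0.07), Spleen KO 1 (-0.09) or Spleen KO 2 (-0.16).

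*Stag2* was the member that was lower in KO in both organs. Its levels were 180.8 and 184.4 CPM (*Wt*) and 155.8 and 158.8 (KO) in lung, and 182.8 and 202.1 (*Wt*) and 165.8 and 164.3 (KO) in spleen. All 4 KO libraries lay below all 4 *Wt* libraries. KO over *Wt* gave a log2 fold change of -0.21 ± 0.06 in lung (edgeR adjusted p = 0.0014) and -0.24 ± 0.05 in spleen (edgeR adjusted p = 0.00011), and the difference, 0.03 (95% confidence interval -0.12 to 0.18), did not pass the test. When each library's trend with GC content was removed, the lung value went to 0.02, the spleen value to -0.41 and the difference to 0.43, which was then called (edgeR adjusted p = 1.7e-06). The spleen call was lost without Spleen *Wt* 2 (-0.15, edgeR adjusted p = 0.074).

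*Stag1*, the alternative to *Stag2*, was at 114.5 to 125.6 CPM in all 8 libraries, the narrowest range of the 10 genes relative to its level. Its log2 fold change was 0.02 (95% confidence interval -0.10 to 0.14) in lung and -0.01 (-0.13 to 0.10) in spleen, and it was called in none of the 5 comparisons by edgeR's quasi-likelihood test (lowest unadjusted p 0.55) or by DESeq2. *Stag2* over *Stag1* per kb was therefore lower in KO, at 1.77 and 1.86 in Lung KO against 2.05 and 2.29 in Lung *Wt*, and at 2 and 1.93 in Spleen KO against 2.23 and 2.32 in Spleen *Wt*. With 2 libraries against 2, an exact permutation test of such a ratio cannot give a two-sided p below 0.333, and none was run.

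*Smc1a* and *Stag2* are X-linked. *Xist*, the RNA that silences an X chromosome in female cells, was at 215 to 241 CPM in lung and 144 to 170 in spleen, higher in lung by 0.67 in *Wt* and 0.45 in KO on the log2 scale, and the Y-linked *Ddx3y*, *Eif2s3y*, *Kdm5d* and *Uty* had no read except 1 read of *Eif2s3y* in Spleen *Wt* 2.

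The gene for the cohesin loader, *Nipbl*, followed *Smc3*. It was at 475.7 and 478.5 CPM (*Wt*) and 347.8 and 340 (KO) in lung, and 361.5 and 382 (*Wt*) and 448.2 and 474.8 (KO) in spleen. In each organ the genotypes were apart, in opposite order. Its log2 fold change came to -0.47 ± 0.04 in lung (edgeR adjusted p = 1e-11) and 0.32 ± 0.04 in spleen (edgeR adjusted p = 3.9e-08), and the difference was -0.79 ± 0.06 (edgeR adjusted p = 3.8e-14).

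*Wapl*, whose product opposes NIPBL by releasing cohesin from DNA, moved in the same directions as *Nipbl* and further in lung. It was at 317.4 and 305.7 CPM (*Wt*) and 205.5 and 201.1 (KO) in lung, and 194.6 and 212.4 (*Wt*) and 261.8 and 269.7 (KO) in spleen. Lung KO and Spleen *Wt* overlapped, and the other 2 groups lay above both. On the log2 scale, KO differed from *Wt* by -0.62 ± 0.05 in lung (edgeR adjusted p = 2.4e-13) and 0.38 ± 0.05 in spleen (edgeR adjusted p = 1.6e-08), and the difference, -1.00 ± 0.07 (edgeR adjusted p = 2e-15), was the largest of the 10 members. Loader over release factor, *Nipbl* over *Wapl* per kb, stayed between 1.05 and 1.31, lowest in Lung *Wt* (1.05 and 1.1) and highest in Spleen *Wt* (1.31 and 1.26).

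PDS5A and PDS5B bind the ring and take part in both its release and its protection, and their genes did not move together. *Pds5a* was at 79.69 and 93.77 CPM (*Wt*) and 84.94 and 88.16 (KO) in lung, and 57.7 and 59.36 (*Wt*) and 83.57 and 79.71 (KO) in spleen. Spleen *Wt* was thus the low group, while the lung genotypes overlapped. The KO effect on the log2 scale was 0.45 ± 0.07 in spleen (edgeR adjusted p = 1.4e-06) and 0.03 (95% confidence interval -0.11 to 0.18) in lung, with a difference of -0.42 ± 0.10 (edgeR adjusted p = 0.00057). With the GC trend removed the difference was -0.22 (edgeR adjusted p = 0.062), and with the trends with GC content and length removed -0.07.

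*Pds5b* was at 43.64 and 35.49 CPM (*Wt*) and 48.31 and 46.67 (KO) in lung, and 48.71 and 54.92 (*Wt*) and 47.01 and 46.96 (KO) in spleen. The *Wt* libraries were spread more widely than the KO libraries in both organs. Neither the lung value of 0.21 ± 0.10 (edgeR adjusted p = 0.057) nor the spleen value of -0.17 ± 0.08 (edgeR adjusted p = 0.076) passed the test. The lung value was called under 7 of 15 alternatives, among them the GC offset (0.37, edgeR adjusted p = 0.00087) and the fit without Lung *Wt* 1 (0.41), and it was lowest without Lung *Wt* 2 (0.11). The spleen value was called under 6, among them the GC offset (-0.30, edgeR adjusted p = 0.0011) and the fit without Spleen *Wt* 1 (-0.23), and was nearest to 0 without Spleen *Wt* 2 (-0.05). Their difference of 0.38 ± 0.13 did (edgeR adjusted p = 0.0087), but not by DESeq2 (0.37, adjusted p = 0.13) or without Lung *Wt* 2 (0.28), Spleen *Wt* 2 (0.27) or Spleen KO 2 (0.38, edgeR adjusted p = 0.058).

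*Ctcf* had the largest KO effect of the 10 members in lung and none that passed the test in spleen. It was at 163.5 and 168.6 CPM (*Wt*) and 95.18 and 96.46 (KO) in lung, and 119.7 and 115.4 (*Wt*) and 117.2 and 125.4 (KO) in spleen. Lung *Wt* stood above and Lung KO below all 4 spleen libraries, whose genotypes overlapped. The log2 fold change was -0.79 ± 0.06 in lung (edgeR adjusted p = 9.4e-14) and 0.08 (95% confidence interval -0.03 to 0.19) in spleen, and the difference was -0.87 ± 0.08 (edgeR adjusted p = 1.2e-11).

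*Rad21* rose in lung where *Ctcf* fell, and their ratio spread more than either gene. *Ctcf* over *Rad21* per kb was 0.592 and 0.601 (*Wt*) and 0.272 and 0.298 (KO) in lung, and 0.395 and 0.364 (*Wt*) and 0.421 and 0.429 (KO) in spleen. A noncoding gene, *Gm5914*, lies antisense over 7.61% of the exons of *Ctcf* and had 2 to 31 reads per library. In Lung *Wt* it had 6 and 2 reads, against 1315 and 651 of *Ctcf*, and in Spleen KO 2 it had 31, against 3274. The strand setting of the counting is not given in the sources used here.

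**Figure D3:**
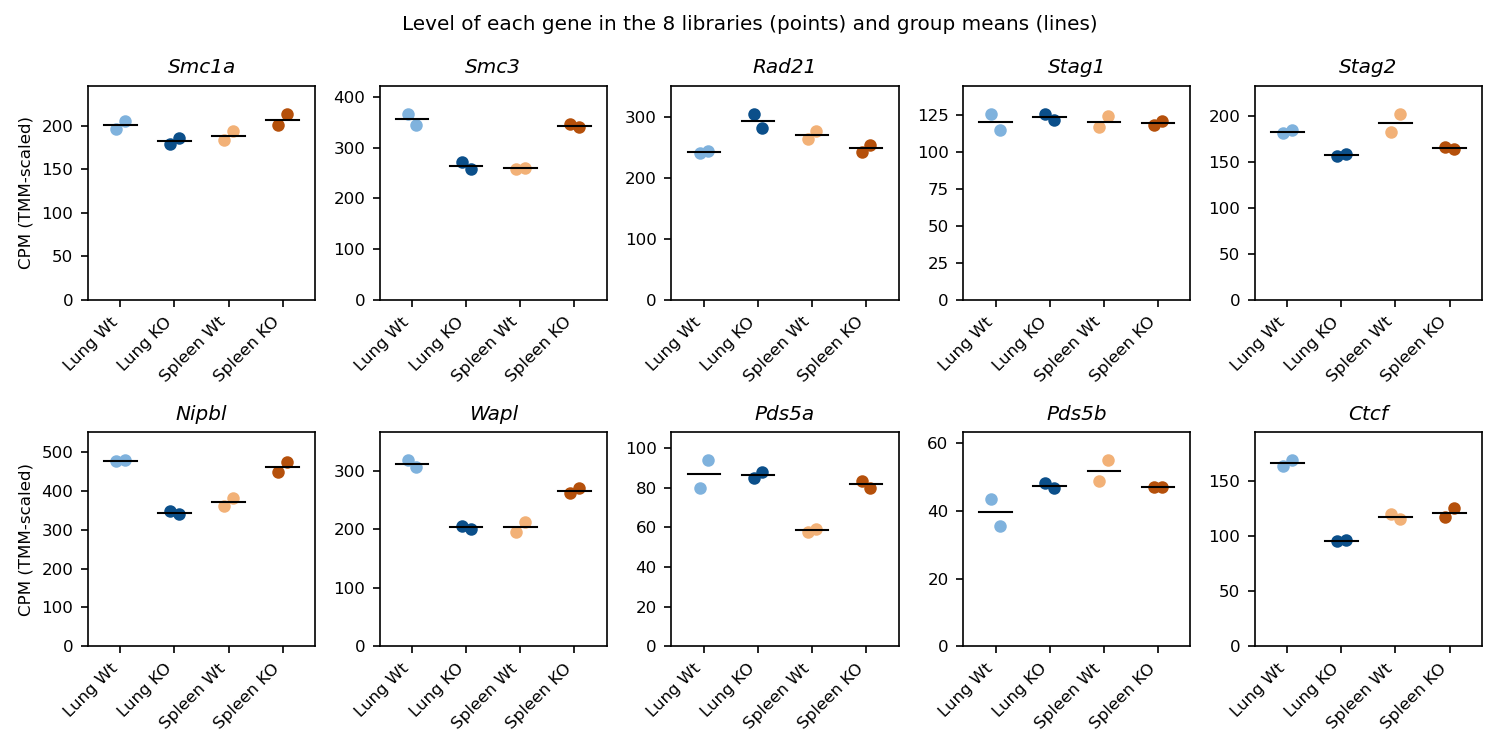
CPM of each member (vertical axes from 0, one scale per gene) in the 8 libraries (points) with the mean of each group (lines). *Smc3*, *Nipbl* and *Wapl* share a profile that is high in Lung *Wt* and Spleen KO, *Ctcf* is lowest in Lung KO, and *Stag1* is level at 114.5 to 125.6 CPM.

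The organs were also compared within each genotype, using the same libraries as the comparisons above. In *Wt* mice, 7 of the 10 members differed between lung and spleen, 5 higher and 2 lower in lung, beside 57% of all genes tested. *Wapl* was higher in lung by 0.61 ± 0.05 on the log2 scale, *Pds5a* by 0.53 ± 0.08, *Ctcf* by 0.50 ± 0.06, *Smc3* by 0.46 ± 0.05 and *Nipbl* by 0.35 ± 0.04, whereas *Pds5b* (-0.37 ± 0.09) and *Rad21* (-0.16 ± 0.05) were lower. With the trends with GC content and length removed, the value of *Pds5a* was 0.24. The calls of *Pds5b* and *Rad21* were lost without Spleen *Wt* 2 (-0.26 and -0.13), and that of *Rad21* also without Lung *Wt* 1 (-0.14).

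In KO mice, 6 members differed, 1 higher and 5 lower in lung, beside 65.6% of all genes tested. *Nipbl* was lower in lung with a log2 difference of -0.44 ± 0.04, *Wapl* with -0.40 ± 0.05, *Smc3* and *Ctcf* both with -0.37, and *Smc1a* with -0.20 ± 0.05, while *Rad21* was higher by 0.22 ± 0.05. The call of *Smc1a* was lost without Spleen KO 2 (-0.12). The genes for the loader, the release factor, 1 arm of the ring and CTCF were thus higher in lung than in spleen in *Wt* and lower in KO. That reversal is the difference of KO effects given above, seen along the other axis of the design, and not a second result.

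The transcripts of all 10 members were poorer in G and C than the median of the genes tested (38.1% to 46.9%, against a median of 48.8%), and longer, with a median of 7.44 kb of exon against 4.01 kb. KO effects over all genes ran with GC content: Spearman's rho between log2 fold change and GC content was 0.289 in lung and -0.272 in spleen over 12501 genes, which are not independent replicates. Among the bin of 1250 genes with a median GC content of 42.14%, close to that of the members (42.3%), the median log2 fold change was -0.135 in lung and 0.133 in spleen.

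After an offset took out the GC trend, the lung falls and spleen rises of the members with the largest effects were smaller but still called, and the lung rise of *Rad21* was larger. The lung value of *Wapl* became -0.48, that of *Nipbl* -0.36, that of *Smc3* -0.32 and that of *Ctcf* -0.75, while that of *Rad21* became 0.35. In spleen, *Wapl* was then at 0.26, *Nipbl* at 0.21, *Smc3* at 0.29 and *Pds5a* at 0.35. The counts became 7 called in lung (3 higher, 4 lower) and 9 in spleen (5 higher, 4 lower), beside 54.2% and 55.9% of all genes. *Stag1* was then called in both organs, at 0.15 in lung (edgeR adjusted p = 0.029) and -0.13 in spleen (edgeR adjusted p = 0.04), and so was *Pds5b*, at 0.37 and -0.30.

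**Figure D4:**
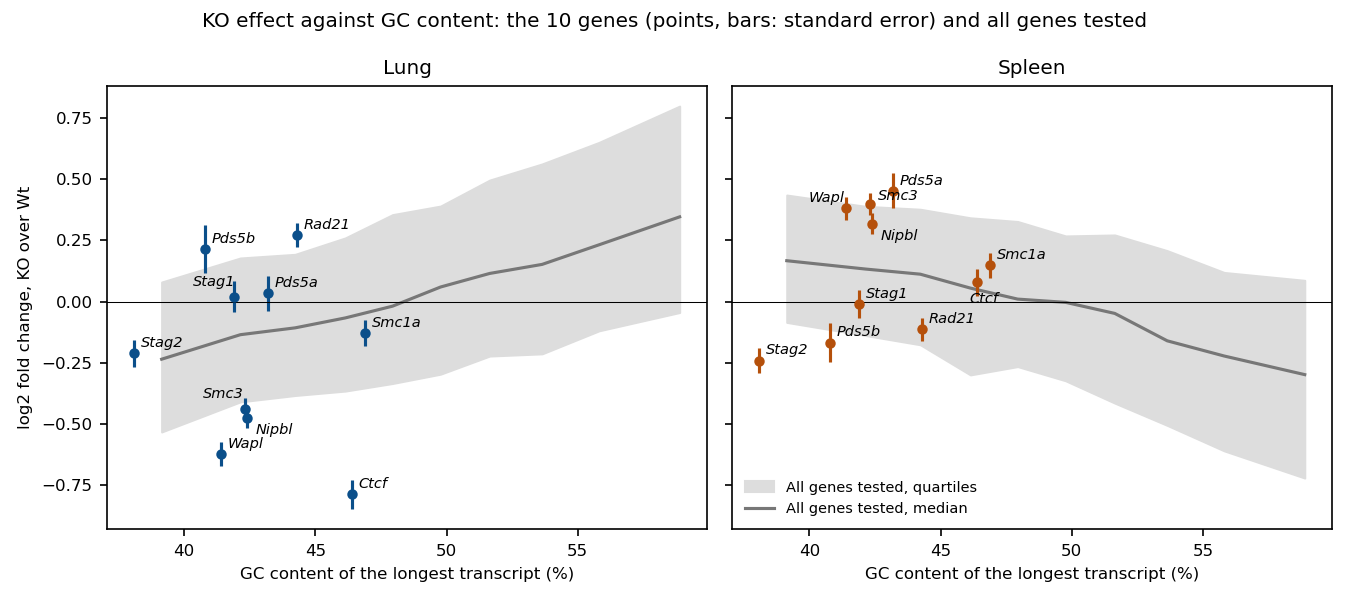
Log2 fold change of KO over *Wt* against GC content of the longest transcript, in lung (left) and spleen (right), for the 10 members (points with standard errors) and for all genes tested in 10 bins of GC content (line: median, band: quartiles). The median of all genes rises with GC content in lung, from -0.235 to 0.346, and falls in spleen, from 0.167 to -0.298. In lung *Ctcf*, *Wapl*, *Nipbl* and *Smc3* lie below the band and *Rad21* and *Pds5b* above it. In spleen *Nipbl* and *Wapl* lie inside the band, *Smc3* at its upper edge, *Pds5a* above it and *Pds5b* below it.

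Of the other regulators of cohesin, 9 of the 12 listed symbols were in the files and 8 were tested. In Lung KO, 5 of them rose and 2 fell (median log2 fold change 0.55, against 0.02 over all genes tested). In Spleen KO 2 rose and 5 fell (median -0.26, against 0.00). Of all genes tested, 55.6% were called in lung and 57.1% in spleen. Where at least 10 reads were required in every library, 2 of 5 tested rose and 2 fell in lung (median -0.01), beside 58.5% of all genes. With no filter, 4 of 9 tested rose and 4 fell in spleen, beside 37%. DESeq2 called 3 higher and 2 lower in lung, beside 35.8% of all genes tested. The lung median ran from 0.16 without Lung KO 2 to 0.94 without Lung *Wt* 1, and was 0.24 without Lung *Wt* 2. The spleen median was -0.03 without Spleen *Wt* 2, -0.11 without Spleen KO 1 and -0.18 without Spleen *Wt* 1 or Spleen KO 2. *Plk1*, a mitotic kinase, rose in lung (log2 fold change 3.21 ± 0.52, from 4 and 1 reads in *Wt* to 26 and 23 in KO) and fell in spleen (-1.13 ± 0.21). *Cdca5*, which codes for sororin, a protector of cohesin after replication, rose in lung (1.11 ± 0.29) and fell in spleen (-0.96 ± 0.15), and *Brca2*, a DNA repair gene, rose in lung (0.85 ± 0.37, edgeR adjusted p = 0.048).

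*Esco2*, which codes for an enzyme that acetylates SMC3 in S phase, had 1 read in the Lung *Wt* libraries together and 52 in Lung KO, a ratio of 50.6 (exact 95% confidence interval of the counts 8.69 to 2036, counting error only). Its spleen value was -0.40 ± 0.15. The next genes were chosen after their values were seen. *Mau2*, which codes for the partner of NIPBL in the loader, was at 73.6 and 73.3 CPM (*Wt*) and 82.1 and 90.3 (KO) in lung, and 71.4 and 75.7 (*Wt*) and 47.3 and 52.1 (KO) in spleen. It rose in lung (0.24 ± 0.07) and fell in spleen (-0.53 ± 0.07), against the direction of *Nipbl* in both organs. *Esco1*, which acetylates SMC3 through the whole cell cycle, fell in both (-0.68 ± 0.05 in lung and -0.12 ± 0.05 in spleen).

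Of the SMC5/6 complex, a relative of cohesin that acts in DNA repair, 5 of 7 listed genes were tested, of which 3 fell in lung and none rose (median -0.27), and 4 rose in spleen and none fell (median 0.38), by edgeR's quasi-likelihood test, beside 55.6% of all genes called in lung and 57.1% in spleen. *Smc6* moved by -0.61 ± 0.05 and 0.39 ± 0.05, *Nsmce2* by -0.79 ± 0.07 and 0.38 ± 0.06, and *Nsmce1* by -0.27 ± 0.06 and 0.50 ± 0.06, in lung and spleen. *Nsmce4a* rose in spleen (0.28 ± 0.04), and its lung value was -0.09 ± 0.05. With the GC offset, 1 SMC5/6 gene was called higher and 3 lower in lung, beside 54.2% of all genes.

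All 8 condensin subunits, which compact chromosomes, were tested, and 5 rose and 2 fell in lung (median 0.28), while 2 rose and 4 fell in spleen (median -0.35), beside the same 55.6% and 57.1% of all genes. With the GC offset, 3 rose and 2 fell in lung (median 0.18), beside 54.2% of all genes, and the spleen median was -0.20. With the offset for GC content and length the medians were 0.11 and -0.13. *Ncapg* rose in lung (2.05 ± 0.26) and fell in spleen (-1.26 ± 0.17), *Ncapg2* fell in both (-1.47 ± 0.19 and -0.61 ± 0.15), and *Ncaph* rose in both (0.95 ± 0.22 and 0.48 ± 0.13). *Ncapd3* fell in spleen (-0.56 ± 0.08), and its lung value was -0.13 ± 0.09. Of the 5 germline paralogs of cohesin subunits and *Ctcf*, the filter left *Rec8*, a meiotic kleisin, which rose in both organs (0.95 ± 0.27 and 1.84 ± 0.28) at between 1.64 and 7.18 CPM. DESeq2 made the call in spleen only.

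Of 17 other architectural and looping genes, 16 were tested. In lung 10 rose and 3 fell (median 0.22), and in spleen 1 rose and 9 fell (median -0.27), beside 55.6% and 57.1% of all genes called. Without Spleen KO 2, the spleen median was -0.32. With the offset for GC content and length, 4 rose and 8 fell in spleen (median -0.14), beside 54.2% of all genes called. *Ldb1*, a looping adaptor, rose in lung (1.19 ± 0.21) and fell in spleen (-1.09 ± 0.17), as did *Lmnb1*, which codes for lamin B1 (1.17 ± 0.12 and -0.74 ± 0.10). The zinc finger gene *Patz1* (1.54 ± 0.23) and *Med12*, of the Mediator complex (1.24 ± 0.17), rose in lung, with spleen values of 0.13 ± 0.17 and -0.02 ± 0.14.

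*Satb1*, which codes for a chromatin organizer studied at the *Ccl5* locus, was at 264 and 289 CPM (*Wt*) and 308 and 294 (KO) in lung, and 254 and 238 (*Wt*) and 234 and 233 (KO) in spleen. It rose slightly in lung (0.13 ± 0.05, edgeR adjusted p = 0.02), and its spleen value was -0.07 ± 0.05 (edgeR adjusted p = 0.23).

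Over the 8 libraries, the mean centred log2 CPM of the 10 members was 0.13 and 0.11 (*Wt*) and -0.08 and -0.10 (KO) in lung, and -0.12 and -0.04 (*Wt*) and 0.03 and 0.06 (KO) in spleen. Pearson's r with this mean, to which each member contributes, was 0.993 for *Wapl*, 0.963 for *Nipbl*, 0.95 for *Smc3*, 0.848 for *Ctcf* and 0.809 for *Smc1a*, but -0.797 for *Rad21* and -0.624 for *Pds5b*. Between pairs of members, r was highest for *Smc3* and *Wapl* (0.964) and lowest for *Rad21* and *Nipbl* (-0.877). These are descriptions over 8 libraries that share 4 groups.

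Among 5048 genes outside the lists with a mean log2 CPM above 5, the genes most like the mean of the members were *Klrc1* (r = 0.994), which codes for the NK receptor NKG2A, *Ube3a* (0.993), a ubiquitin ligase gene, *Scfd1* (0.99), a vesicle transport gene, and the chromatin genes *Atrx* (0.986) and *Mtf2* (0.986). *Klrc1* was at 1098 and 1062 CPM (*Wt*) and 837 and 799 (KO) in lung, and 783.9 and 851.3 (*Wt*) and 957.5 and 975.5 (KO) in spleen. Its high and low groups were those of *Smc3*, *Nipbl* and *Wapl*, which follows from its choice by likeness to the members' mean.

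Genes of dividing cells also differed between the groups. Of 14 proliferation genes, 12 rose and 1 fell in lung, and 6 rose and 6 fell in spleen, beside 55.6% and 57.1% of all genes called. The lung median log2 fold change was 0.86, also with genes at 0 reads set to their bound. The summed level of the 14 genes was 285 to 291 CPM in Lung *Wt*, 437 to 446 in Lung KO, 595 to 607 in Spleen *Wt* and 523 to 560 in Spleen KO. *Bub1* and *Ccnb1*, mitotic genes, had 0 reads in Lung *Wt* and were at least 14.3-fold and 9.4-fold higher in Lung KO, against a floor of 3 reads over the group. *Aurkb*, a mitotic kinase gene, rose in lung (3.35 ± 0.39) and fell in spleen (-0.62 ± 0.15). Its Lung *Wt* levels were 0.87 and 0.259 CPM, of which the second lay below the floor of that library (0.777 CPM). *Rrm2*, which serves DNA synthesis, rose in lung (1.81 ± 0.12), with a spleen value of -0.11 ± 0.06.

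Markers of other cells also differed between the genotypes. Beside the counts of markers given here and below, 55.6% of all genes were called in lung and 57.1% in spleen. The 8 markers of lung epithelium, endothelium and stroma summed to 307 to 313 CPM in Lung *Wt*, 402 to 438 in Lung KO, 65.7 to 75.7 in Spleen *Wt* and 67.2 to 68.6 in Spleen KO, with *Sftpc*, *Sftpb*, *Scgb1a1*, *Cdh5* and *Col1a1* at 0 in all spleen libraries. In lung 3 of the 5 that were tested rose and 1 fell. The 4 hemoglobin genes summed to 24.7 to 27.7 CPM in Lung *Wt*, 48.9 to 52.5 in Lung KO and at most 0.979 in spleen, and 3 of 4 rose in lung.

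The 9 T cell markers summed to 415 to 434 CPM in Lung *Wt*, 326 to 345 in Lung KO, 549 to 561 in Spleen *Wt* and 600 to 634 in Spleen KO. *Trbc1* and *Trbc2* made up most of this sum. In lung 3 of 6 tested fell, and in spleen 2 rose and 1 fell (*Cd3e*, -1.60 ± 0.12). The 7 myeloid markers summed to 32.4 to 36 CPM in Lung *Wt*, 36.4 to 41.5 in Lung KO, 20 to 20.2 in Spleen *Wt* and 26.7 to 27.7 in Spleen KO, with *Adgre1*, *S100a8*, *S100a9* and *Mpo* at 0 throughout. Of the 3 that were tested, 1 rose and 1 fell in lung, and 1 rose in spleen.

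The 11 NK cell markers summed to 51025 to 52556 CPM in Lung *Wt*, 40971 to 41354 in Lung KO, 37415 to 38001 in Spleen *Wt* and 48285 to 50579 in Spleen KO, with 3 higher and 6 lower in lung and 8 higher and 3 lower in spleen. *Gzma* and *Nkg7*, genes of the cytotoxic granules, made up most of this sum, and *Tbx21* (log2 fold change 1.13 in lung and -1.18 in spleen), *Il2rb* (1.21 and -0.61) and *Prf1* (0.74 and -0.48) went the other way. The 5 markers of other innate lymphoid cells summed to 455 to 474 CPM in lung, 557 to 560 in Spleen *Wt* and 473 to 476 in Spleen KO, with 1 higher and 2 lower in lung and 2 higher and 2 lower in spleen. *Gata3* made up most of this sum and was the 1 higher in lung (0.19), where *Il7r* (-1.38) and *Cxcr6* (-0.79) were lower. The part of these cell types and of proliferation in the results for the members was not tested. Values of the members with the GC trend removed are given above, and the cause of that trend was not tested.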

How the data were processed

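RNA-seq of sorted NK cells gave 8 libraries, 2 for each organ and genotype, grouped by the sample labels. Reads were of 50 bp. The authors used HISAT2 (2.1.0) for alignment to mm10 and HTSeq (0.11.1 per the submitters' processing notes) for counting, and the deposited values are raw counts for each gene symbol. The annotation used for counting is not given in the sources used here. Of the uniquely aligned reads, 44.3% to 46.6% were counted on genes. HTSeq's rows for uncounted reads were left out of library sizes and tests.

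The analysis used edgeR 4.0.16 (with limma 3.58.1) in R 4.3.3. Genes were kept by filterByExpr, scaled by TMM, and fitted with 1 mean per group over all 8 libraries. The 5 comparisons used edgeR's quasi-likelihood test at a Benjamini-Hochberg FDR of 0.05. Fold changes are on the log2 scale with their SE. The steps were tested on simulated counts. GENCODE M21 (GRCm38) gave gene positions, exon lengths and the GC content of the longest transcript, and 46394 of 48321 symbols matched by name and 585 by synonym. Confidence intervals of log2 fold changes were taken from the SE of the quasi-likelihood fit. The interval of the *Esco2* ratio and the floors cover counting error only.

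The members and gene lists were chosen with earlier results of these data known. Named were all members, *Ccl5*, *Satb1*, the X and Y checks, the 5 genes most like the members' mean, and per list up to 4 genes with the largest log2 fold change past the FDR in a genotype comparison. *Mau2*, *Esco1*, the NK and other cell markers and the antisense *Gm5914* were named outside this rule, after their values were seen. Alternatives were RLE and library-total scaling, other filters, DESeq2 1.42.0, fits of 4 libraries, a replicate block, offsets for GC content and length (splines with 5 degrees of freedom), leaving out each library, and a coefficient of variation set to 0.2. Equal replicate numbers were not taken to pair libraries: the correlation of deviations, over 5103 genes, was -0.0139 between the lung genotypes and 0.169 between the spleen genotypes.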

Additional observations from a re-analysis of the deposited data

Results flagged for a closer look

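In 8 members the KO effect differed between lung and spleen by the test of the difference itself (edgeR's quasi-likelihood test, 2 libraries per group). On the log2 scale, lung minus spleen, the difference was -1.00 in *Wapl*, -0.87 in *Ctcf*, -0.83 in *Smc3*, -0.79 in *Nipbl*, -0.42 in *Pds5a* and -0.28 in *Smc1a*, and it was 0.38 in *Rad21* and 0.38 in *Pds5b*. With the GC trend removed it was -0.74 in *Wapl*, -0.79 in *Ctcf*, -0.61 in *Smc3*, -0.57 in *Nipbl*, -0.23 in *Smc1a*, 0.54 in *Rad21* and 0.67 in *Pds5b*, all still called, and -0.22 in *Pds5a*, no longer called. The difference of *Smc1a* was not called without Spleen KO 2 (-0.21, edgeR adjusted p = 0.052) or with library totals (-0.12, edgeR adjusted p = 0.18), and that of *Pds5b* was not called by DESeq2 (0.37, adjusted p = 0.13). No group had 4 or more libraries, so single libraries that stand apart were not looked for.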

How the results depend on the processing

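Counts of members called stayed within 1.5 times of those reported under every alternative except an assumed coefficient of variation of 0.2 (edgeR's likelihood ratio test), under which 0 members were called in each of the 5 comparisons (at an unadjusted p under 0.05, 2 in lung, 0 in spleen, 3 in the difference, 1 between organs in *Wt* and 0 in KO). Of all genes tested, 12.4%, 9.08%, 16%, 16% and 18.4% were then called in that order. DESeq2 called 6, 5, 7, 6 and 6 members in the same order, beside 35.8%, 33.1%, 42.3%, 38% and 44% of all genes tested. The replicate block called 8, 7, 8, 7 and 6, beside 55.4%, 57%, 61.6%, 56.6% and 65.1%. The lung count of the block has *Pds5b* as an added call (0.22). Leaving out 1 library of a comparison left 1 group with 1 library, so the counts of calls under these fits are not set out here. The estimated spread is small (a common coefficient of variation of 2.5%), which limits these tests.

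The calls of *Ctcf*, *Rad21*, *Smc3*, *Nipbl* and *Wapl* in lung, and of *Smc3*, *Nipbl*, *Wapl* and *Pds5a* in spleen, were made under every alternative but the assumed variation. The lung call of *Smc1a* was lost under 8 of 15 alternatives, that of *Stag2* under 5, and the spleen call of *Rad21* under 7, that of *Smc1a* under 5. Of 780 values of members under alternatives, 649 kept direction and call, 68 lost the call, 38 gained one and 25 turned sign.

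Library totals moved the median of all genes from 0.03 to 0.19 for the difference of KO effects, and the share of calls that were higher from 52.5% to 63.3% in lung, from 52.9% to 63.5% for the difference and from 48.6% to 36.9% between organs in *Wt*; *Smc1a* between organs in *Wt* then turned to -0.03 and *Stag1* to -0.10. With no filter, *Stag1* turned to 0.01 in spleen and -0.0027 between organs in *Wt*, and *Pds5b* to -0.01 between organs in KO. With the replicate block *Stag1* turned to -0.0005 between organs in *Wt*. With the GC offset *Stag2* turned to 0.02 in lung and 0.10 between organs in KO, and *Stag1* to -0.10 between organs in *Wt*; with the offset for length too, *Stag1* there was -0.15. With the replicate block and the GC offset, these 3 values were 0.01, 0.11 and -0.11. With the assumed variation, *Pds5a* in lung was -0.00059 and *Stag1* between organs in *Wt* -0.0023. Over the libraries left out, *Stag1* ran from -0.03 to 0.10 in lung, -0.04 to 0.04 in spleen, -0.02 to 0.10 in the difference and -0.07 to 0.06 between organs in *Wt*, *Stag2* from -0.06 to 0.09 in the difference, *Pds5a* from -0.12 to 0.12 in lung and *Pds5b* from -0.0016 to 0.04 between organs in KO. The cause was not tested.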
